A study of Mus musculus with 12 samples.

Results

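Tetraspanins are small membrane proteins that cross the membrane several times and bind each other and partner proteins, such as integrins and immunoglobulin-superfamily receptors, in patches called tetraspanin-enriched microdomains. In lymphocytes they shape signalling of the B cell receptor and its co-receptor, adhesion, migration and the loading of extracellular vesicles. CD9 is found on marginal zone B cells, B-1 cells and plasma cells of the mouse, and the title of the series names a CD9+ regulatory B cell subset in house dust mite (HDM) allergy. The members described here are 10 tetraspanin genes known from leukocytes: Cd9, Cd81, Cd82, Cd63, Cd37, Cd53, Cd151, Tspan31, Tspan32 and Tspan33. They were taken as every non-control probe of the array that carried one of these gene names, which gave 16 of the 55681 gene probes. All 10 genes, and all 16 probes, passed the filter on dim signals and are among the 24958 genes tested. Cd82 and Tspan32 had 3 probes each, Cd37 and Cd151 had 2 each, and the other members had 1. The question is whether Cd9 stands alone among them in following IL-10 secretion.

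The series holds 12 one-colour microarrays of splenic B cells from female Balb/c mice, in 4 groups of 3 arrays. The groups are IL-10+ cells of HDM mice, IL-10- cells of HDM mice, IL-10+ cells of control mice and IL-10- cells of control mice. HDM mice are described as allergic and asthmatic, and the labels give no age and no further detail of the sensitisation or of the control mice. All cells, of every group, had been cultured for days with a CD40 agonist, a mimic of T cell help, and had received LPS, a bacterial ligand of Toll-like receptors, in the final hours. They were then stained with an IL-10 secretion assay, which traps the cytokine on the cell that releases it, and sorted by flow cytometry. IL-10- cells are therefore stimulated B cells that did not secrete detectable IL-10, and not resting cells. Nothing in the labels tells whether samples of 1 group are different animals or cultures, and p-values therefore rest on a sample-to-sample spread that could be partly technical.

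A level below is the log2 of a probe's background-subtracted signal over its array's 75th percentile, so that 0 marks a signal equal to that percentile. Levels of different probes are not set against each other, because each probe has its own binding strength. Differences are log2 fold changes fitted with limma and given with the standard error (SE). A gene counts as called where its p, adjusted by Benjamini-Hochberg across the 24958 genes, was under 0.05. Each array held 59305 gene spots, and the scanner flagged 47.7% to 62.4% of them as well above background and none as saturated. IL-10- HDM array 3 stood apart, correlating across genes with the remaining arrays at a mean of 0.775, where each of those reached 0.867 to 0.901. The arrays lay on 2 slides. All IL-10+ arrays and IL-10- control arrays 1 and 2 were on slide 1, and IL-10- control array 3 and all IL-10- HDM arrays were on slide 2. In HDM mice the sort and the slide therefore cannot be told apart. Of the 14 B cell identity genes, 12 were well above background on every array, among them Ms4a1, Pax5 and the member Cd37; Cd79a missed it on 1 IL-10- array and Fcrla was dim on several. Il10 itself, the sorted cytokine, had a level of 6.76 ± 0.29 in IL-10+ HDM cells and -1.85 ± 3.1 in IL-10- HDM cells, and of 7.15 ± 0.37 in IL-10+ control cells and 0.59 ± 0.59 in IL-10- control cells (SD, n = 3 each).

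Cd9 was the member that followed the sort. Its transcript was 22.9-fold higher in IL-10+ than in IL-10- cells, averaged over HDM and control mice, and the 6 IL-10+ arrays did not overlap the 6 IL-10- arrays. On 2 of the 6 IL-10- arrays Cd9 was not well above background, and the fold was 7.12 with normexp background correction, which lifts dim signals. None of the other 9 members was called by limma. At the probe used for each gene, Cd37, Cd53 and Tspan33 had an unadjusted p under 0.05, as 9.17% of all genes had. For Tspan33 no IL-10+ array was well above background. Over all 16 probes 6 had an unadjusted p under 0.05. Among them were the Tspan32 probes at bases 1634 (unadjusted p = 0.00069, limma) and 69 (unadjusted p = 0.0116, limma), which were not used for the gene. With 1 of 10 members called, the share called over all tested genes was 0.268% (67 genes, 61 of them higher and 6 lower in IL-10+ cells). Cd9 was also the only member, and its probe the only one of 16, without overlap between the 6 and 6 arrays, which 0.938% of all tested genes showed in either direction. The 10 members had a median log2 fold change of 0.30, with 6 positive and 4 negative, against a median of 0.04 over all genes.

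**Figure D1:**
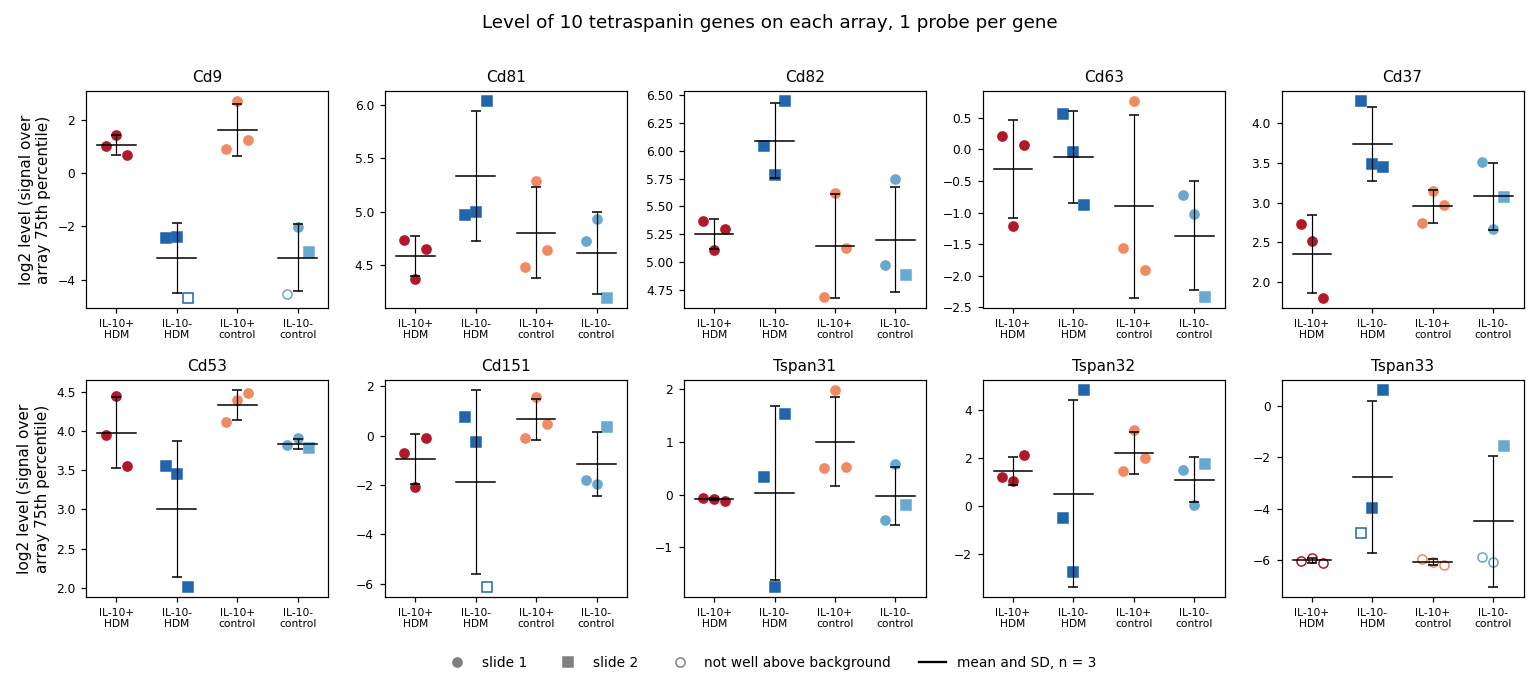
Level of each of the 10 members on each of the 12 arrays, 1 panel per gene with its own vertical range, given as the log2 signal over the array's 75th percentile. Points are arrays (circles on slide 1, squares on slide 2, open where the signal was not well above background) and bars are the mean and SD of 3 arrays. Cd9 lies between 0.69 and 2.70 on the IL-10+ arrays and between -4.70 and -2.04 on the IL-10- arrays, while the 6 IL-10+ and 6 IL-10- arrays of each of the other 9 genes overlap.

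Cd9 encodes a tetraspanin that binds integrins and immunoglobulin-superfamily partners, and it takes part in cell fusion and adhesion. It was measured by 1 spot, whose 60-base probe starts at base 1029 of the transcript and lies on the minus strand at chr6:125410387-125410446 (mm9). The first 30 bases of this probe, on which the main result rests, are shown here.
Cd9 probe: cctgcaatgaaaggtactatatttgccaga

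In HDM mice the Cd9 level was 1.02, 1.44 and 0.69 on the IL-10+ arrays, against -2.46, -2.41 and -4.70 on the IL-10- arrays. In control mice it was 0.89, 2.70 and 1.25 on the IL-10+ arrays, against -4.54, -2.04 and -2.97 on the IL-10- arrays. The gap between the lowest IL-10+ and the highest IL-10- array was therefore wider than the range within any group, in both kinds of mouse. The probe was well above background on all 6 IL-10+ arrays and on 4 of 6 IL-10- arrays, so IL-10- cells gave a Cd9 signal that was low but in most samples measurable. As these are bulk samples, fewer Cd9+ cells and less Cd9 RNA per cell cannot be told apart.

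Averaged over HDM and control mice, the Cd9 difference was 4.52 (SE 0.56, adjusted p = 0.0129, limma). It was 4.24 (SE 0.80, adjusted p = 0.0832) in HDM mice, where 0.168% of all genes were called. It was 4.80 (SE 0.80, adjusted p = 0.191) in control mice, where 0.016% were called. No member was called by limma within either kind of mouse alone; 5 of 10 had an unadjusted p under 0.05 in HDM mice, where 13.3% of all genes had, and 1 of 10, Cd9, in control mice, where 4.06% had. With normexp background correction the averaged difference was 2.83 (SE 0.28, adjusted p = 0.0034). With slide as a block it was 4.73 (SE 1.03), and the adjusted p of 0.266 no longer passed. Within slide 1, which held 3 IL-10+ and 2 IL-10- arrays of control mice, it was 4.90 (SE 0.83, adjusted p = 0.200). Without IL-10- HDM array 3 it was 4.14 (SE 0.50, adjusted p = 0.0226).

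Both IL-10+ groups ranked above both IL-10- groups in Cd9 level. IL-10+ HDM cells had a mean of 1.05 ± 0.38 and IL-10+ control cells 1.62 ± 0.96, the highest of the 4 (SD, n = 3 each). IL-10- HDM cells had -3.19 ± 1.31 and IL-10- control cells -3.18 ± 1.27 (SD, n = 3 each). Groups of the same sort overlapped, so HDM and control cells had no order within it. HDM against control mice gave a Cd9 log2 fold change of -0.57 (95% interval -2.34 to 1.21) for the IL-10+ sort and of -0.0079 (-1.78 to 1.77) for the IL-10- sort. The sort difference in HDM minus that in control mice was -0.56 (-3.07 to 1.95). These intervals are wide: an allergy-linked change of Cd9 by a few-fold in either direction was not detectable with 3 arrays a group.

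CD81 and CD82 are near relatives of CD9. CD81 is part of the B cell co-receptor, and CD82 is an activation-induced tetraspanin first described as a suppressor of metastasis. Both transcripts were well above background on every array of both sorts. The Cd81 level was 4.74, 4.38 and 4.65 in IL-10+ HDM cells, against 4.97, 4.99 and 6.03 in IL-10- HDM cells. It was 4.49, 5.29 and 4.64 in IL-10+ control cells, against 4.73, 4.93 and 4.20 in IL-10- control cells. The highest Cd81 level was on IL-10- HDM array 3, and the control groups overlapped. The averaged Cd81 difference was -0.28 (SE 0.28, adjusted p = 0.798), with a 95% interval of -0.90 to 0.34, which leaves out a change of the size seen for Cd9.

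Cd82 was read by 3 probes, starting at bases 431, 1101 and 1851 of its transcript. The probe at base 1101, used for the gene, had levels of 5.36, 5.11 and 5.30 in IL-10+ HDM cells and 6.05, 5.78 and 6.45 in IL-10- HDM cells. It had 4.69, 5.62 and 5.12 in IL-10+ control cells and 4.98, 5.75 and 4.88 in IL-10- control cells. The IL-10+ HDM arrays thus lay below the IL-10- HDM arrays, while the control groups overlapped. The averaged difference was -0.45 (SE 0.26, adjusted p = 0.645) at base 1101 and -0.67 (SE 0.34, adjusted p = 0.586) at base 1851. The probe at base 431 gave 0.42 (SE 0.70, adjusted p = 0.878), the opposite sign. That sign rested on IL-10- HDM array 3, which read -0.19 where the other arrays of its group read 3.81 and 3.95. Without this array the value at base 431 was -0.25, and with slide as a block it was -0.24.

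CD37 and CD53 are restricted to leukocytes. CD37 is abundant on mature B cells, where it links to cytokine receptor signalling, and CD53 supports B cell development and receptor signalling in the mouse. Their values leaned opposite ways, and neither was called. Cd37 at base 819 read 2.73, 2.52 and 1.80 in IL-10+ HDM cells, against 4.27, 3.49 and 3.45 in IL-10- HDM cells. In control mice it read 2.74, 3.15 and 2.97 in IL-10+ cells, against 3.50, 2.66 and 3.06 in IL-10- cells. All IL-10+ HDM arrays were therefore lower than all IL-10- HDM arrays, and the control groups overlapped. The Cd37 difference was -1.39 (SE 0.38, adjusted p = 0.223) in HDM mice and -0.12 (SE 0.38, adjusted p = 1.00) in control mice. The test of these differences against each other gave -1.26 (SE 0.54, unadjusted p = 0.0419, adjusted p = 0.757), and the averaged difference was -0.76 (SE 0.27, adjusted p = 0.428). The second Cd37 probe, at base 1166, gave an averaged -0.37 (SE 0.21, adjusted p = 0.629). As the HDM contrast coincides with the slide, the part of the slide in the Cd37 values cannot be told apart from the sort. Within slide 1 the difference in control mice was -0.13 (SE 0.43).

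Cd53 read 3.95, 4.44 and 3.55 in IL-10+ HDM cells, against 3.56, 3.45 and 2.01 in IL-10- HDM cells. In control mice it read 4.11, 4.39 and 4.48 in IL-10+ cells, against 3.82, 3.91 and 3.78 in IL-10- cells. The control groups did not overlap, and in HDM mice IL-10+ array 3 lay level with IL-10- array 1. Averaged, the Cd53 difference was 0.73 (SE 0.31, unadjusted p = 0.0383, adjusted p = 0.519), or 0.48 without IL-10- HDM array 3. Cd9 and Cd53 were the 2 members without overlap in control mice, which 9.46% of all genes showed. In HDM mice the groups of 5 members did not overlap, higher in IL-10+ cells for Cd9 and lower for Cd81, Cd82, Cd37 and Tspan33, and 22.6% of all genes showed this in either direction. For Tspan33 no IL-10+ array was well above background, so its place in this count is no measured difference. Sort and slide cannot be told apart in the HDM groups.

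CD63 is the tetraspanin of late endosomes, lysosomes and exosomes, and its appearance on the surface is used as a sign of degranulation. Cd63 was well above background on all 12 arrays and showed no order by group. It read 0.21, -1.21 and 0.06 in IL-10+ HDM cells, against 0.56, -0.04 and -0.88 in IL-10- HDM cells. It read -1.57, 0.76 and -1.90 in IL-10+ control cells, against -0.72, -1.03 and -2.34 in IL-10- control cells. The averaged difference was 0.14 (SE 0.54, adjusted p = 0.957). Its sign turned to -0.19 when arrays were scaled to their median in place of the 75th percentile, and to -0.84 with slide as a block.

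CD151 binds laminin-binding integrins, and TSPAN31 was first found as a gene amplified in human sarcomas. Both were dim to moderate and scattered. Cd151 at base 1078 read -0.70, -2.07 and -0.09 in IL-10+ HDM cells, against 0.75, -0.24 and -6.14 in IL-10- HDM cells, the last of them not well above background and on array 3. It read -0.08, 1.58 and 0.47 in IL-10+ control cells, against -1.78, -1.98 and 0.36 in IL-10- control cells. Averaged, Cd151 differed by 1.36 (SE 1.08, adjusted p = 0.746), or by 0.29 without IL-10- HDM array 3. Within slide 1 the control difference was 2.54 (SE 0.70, adjusted p = 0.510). The probe at base 1760 gave an averaged 0.55 (SE 0.48, adjusted p = 0.762). Tspan31 read -0.06, -0.08 and -0.11 in IL-10+ HDM cells, against 0.33, -1.76 and 1.53 in IL-10- HDM cells. It read 0.51, 1.99 and 0.53 in IL-10+ control cells, against -0.49, 0.59 and -0.19 in IL-10- control cells. Its averaged difference was 0.46 (SE 0.53, adjusted p = 0.820), and the groups overlapped in both kinds of mouse.

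**Figure D2:**
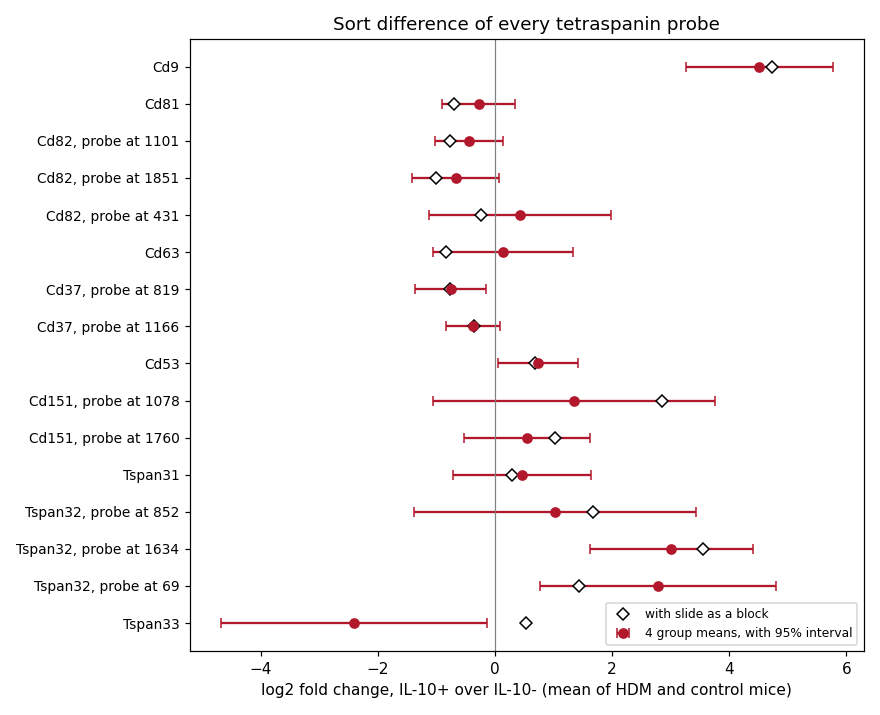
Averaged log2 fold change, IL-10+ over IL-10- cells, of each of the 16 tetraspanin probes, with its 95% interval (filled points), beside the value with slide as a block (open diamonds). Only Cd9, at 4.52, was called; the Tspan32 probes at bases 1634 and 69 follow with 3.01 and 2.78, and Tspan33 turns from -2.41 to 0.53 with slide as a block.

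Tspan32, known from mice as a tetraspanin of blood cells that restrains T cell proliferation, had 3 probes that disagreed. Those at bases 1634 and 69 had the largest positive averaged differences of the 16 probes after Cd9, and the probe at base 852 did not. The gene lies beside Cd81 on chromosome 7 in the RefSeq gene order (GRCm38.p6). The probe at base 852, brightest on average and so used for the gene, spans an intron of the genome at chr7:150203530-150204606, plus strand. The probe at base 1634 lies at chr7:150205329-150205388 and the probe at base 69, annotated on another transcript of the gene, at chr7:150191020-150191079, both on the plus strand (all mm9). They are shown because they read different stretches of the transcript; capitals mark the letters AATAAA, those of the common polyadenylation signal, found in the probe at base 1634, of which 30 bases are given.
Tspan32 probe at base 69: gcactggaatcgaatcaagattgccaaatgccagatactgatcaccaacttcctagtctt
Tspan32 probe at base 852: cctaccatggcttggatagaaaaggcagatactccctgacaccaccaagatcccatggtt
Tspan32 probe at base 1634: actcctctccctAATAAAcccattgattct

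The letters AATAAA, searched on the printed strand of each 60-base probe only, occurred in 3 of the 16 member probes, those of Tspan32 at base 1634, Cd37 at base 1166 and Tspan33, and in 10.1% of all 55681 probes. A match describes the letters of a probe and is no evidence of a used site.

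At base 1634, Tspan32 read -2.88, -3.40 and -1.39 in IL-10+ HDM cells, against -5.94, -6.53 and -6.15 in IL-10- HDM cells, where it was not well above background on any array. In control mice it read -0.94, -1.24 and -2.32 in IL-10+ cells, against -6.01, -2.26 and -3.33 in IL-10- cells, the first of them not well above background. The IL-10+ arrays were all measurable, and 2 of 6 IL-10- arrays were. In HDM mice the level was at least 3.24-fold higher on the IL-10+ arrays, taking for each dim array the lowest signal that any probe well above background had there. Sort and slide cannot be told apart in this bound. The averaged difference was 3.01 (SE 0.63, adjusted p = 0.0943 over 37643 probes) and missed the threshold. It was 3.55 with slide as a block and 0.87 with normexp background correction.

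At base 69, Tspan32 read -0.19, -0.26 and 0.15 in IL-10+ HDM cells, against -0.84, -6.27 and -5.96 in IL-10- HDM cells, arrays 2 and 3 of which were not well above background. In control mice it read 0.34, -0.98 and 0.72 in IL-10+ cells, against 0.06, -1.28 and -2.62 in IL-10- cells. The HDM groups did not overlap and the control groups did. Averaged, this probe gave 2.78 (SE 0.91, adjusted p = 0.355). It passed the threshold only without IL-10- HDM array 1, at 3.67 (SE 0.51, adjusted p = 0.0194), and was 1.44 with slide as a block and 1.26 with normexp background correction.

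At base 852 the same gene showed no such order. It read 1.20, 1.04 and 2.12 in IL-10+ HDM cells, against -0.52, -2.78 and 4.83 in IL-10- HDM cells. It read 1.47, 3.15 and 2.00 in IL-10+ control cells, against 1.51, 0.02 and 1.75 in IL-10- control cells. The highest value of all 12 arrays, 4.83, was on IL-10- HDM array 3, where the other probes of the gene were not well above background. Averaged, it gave 1.03 (SE 1.08, adjusted p = 0.806), and 2.11 (SE 0.54, adjusted p = 0.216) without that array. All 3 probes had positive averaged differences, and none was called with all arrays.

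**Figure D3:**
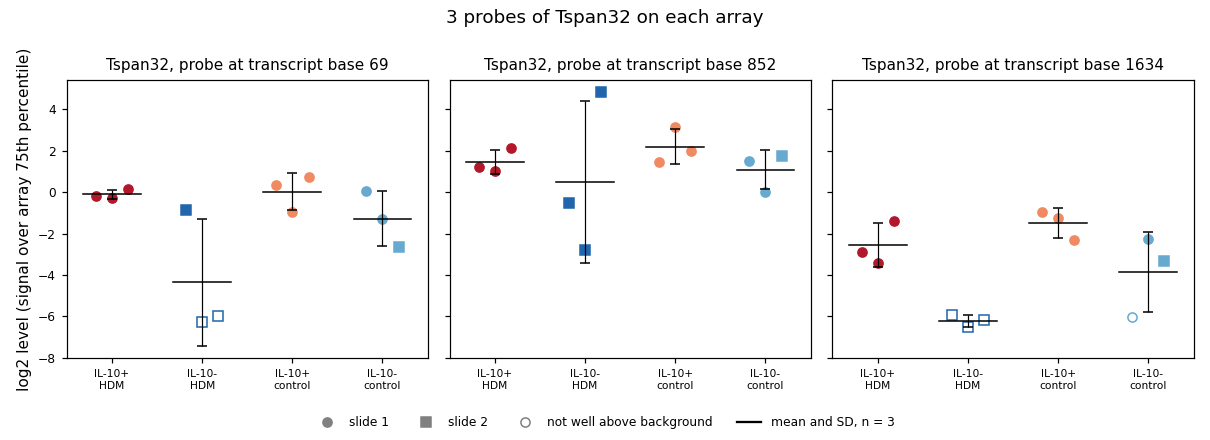
Level of the 3 Tspan32 probes on each array, as the log2 signal over the array's 75th percentile, with the mean and SD of 3 arrays; circles are slide 1, squares slide 2, and open symbols were not well above background. At base 1634 no IL-10- HDM array was well above background (-6.53 to -5.94), whereas at base 852 the IL-10- HDM arrays run from -2.78 to 4.83.

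Tspan33 belongs to the tetraspanins that escort the protease ADAM10 to the cell surface, and in human cells it has been described on activated B cells. Its 60-base probe lies at chr6:29668498-29668557 (mm9, plus strand), and 30 bases of it are shown with AATAAA in capitals, since its fitted averaged difference was the most negative of the 16 probes.
Tspan33 probe: ggcagaaatggcAATAAAagtttgttgaca

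No IL-10+ array had a Tspan33 signal well above background, the levels running from -6.08 to -5.91 in HDM and from -6.19 to -5.96 in control mice. IL-10- HDM cells read -4.94, -3.97 and 0.62, with arrays 2 and 3 well above background, and IL-10- control cells read -5.86, -6.06 and -1.54, with only array 3 so. The 3 arrays with a measurable signal were all on slide 2, and on slide 1 neither sort had one. The averaged difference was -2.41 (SE 1.02, adjusted p = 0.521). In HDM mice a bound, taken as for Tspan32, was at least 2.29-fold lower on the IL-10+ arrays. It leaned on IL-10- array 3, and sort and slide cannot be told apart there. In control mice no bound could be given, and none is given for the average. With slide as a block the sign turned to 0.53 (SE 1.43), and within slide 1 the control difference was -0.11 (SE 0.30).

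Whether Cd9 differed from each other member was tested directly. For each array the level of the other probe was subtracted from that of Cd9, and the change of this quantity between the sorts was set against all 400 rearrangements of the sort labels within HDM and within control mice (exact two-sided permutation test, smallest possible p = 0.005, 15 comparisons, unadjusted). All 15 comparisons use the same Cd9 values and are not independent. As Cd9 itself separated the sorts, any probe that changed little gives a low p. The counts below therefore largely restate the Cd9 difference, and the share over all tested genes was not computed. Slide was not a block in these tests, and in HDM mice it coincides with the sort. Tspan33 is left out of the counts that follow, because no IL-10+ array measured it above background. Cd9 rose more than 11 of the 14 remaining probes with p of 0.01 or less, and these 11 covered 7 of 8 genes. The exception was Tspan32. The excess of Cd9 was smallest among the 7 genes for Cd151 at base 1078, 3.16 (95% interval 0.96 to 5.36, exact permutation p = 0.01), and for Cd53, 3.79 (2.73 to 4.84, exact permutation p = 0.005). It was 4.79 for Cd81 (3.18 to 6.41), 4.96 for Cd82 at base 1101 (3.61 to 6.31), 5.27 for Cd37 at base 819 (3.81 to 6.74), 4.38 for Cd63 (2.86 to 5.90) and 4.06 for Tspan31 (2.09 to 6.02), each at exact permutation p = 0.005.

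Against Tspan32 the excess of Cd9 was 3.49 at base 852 (-0.27 to 7.25, exact permutation p = 0.035), 1.50 at base 1634 (-0.08 to 3.09, exact permutation p = 0.07) and 1.73 at base 69 (-0.98 to 4.45, exact permutation p = 0.205). The first was 2.03 with exact permutation p = 0.065 without IL-10- HDM array 3. The second was 1.96 with normexp background correction, at exact permutation p = 0.005, and the third 1.57, at exact permutation p = 0.01. So a difference between Cd9 and Tspan32 depended on the probe and on the background correction, and a missed threshold here does not show that they moved alike.

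**Figure D4:**
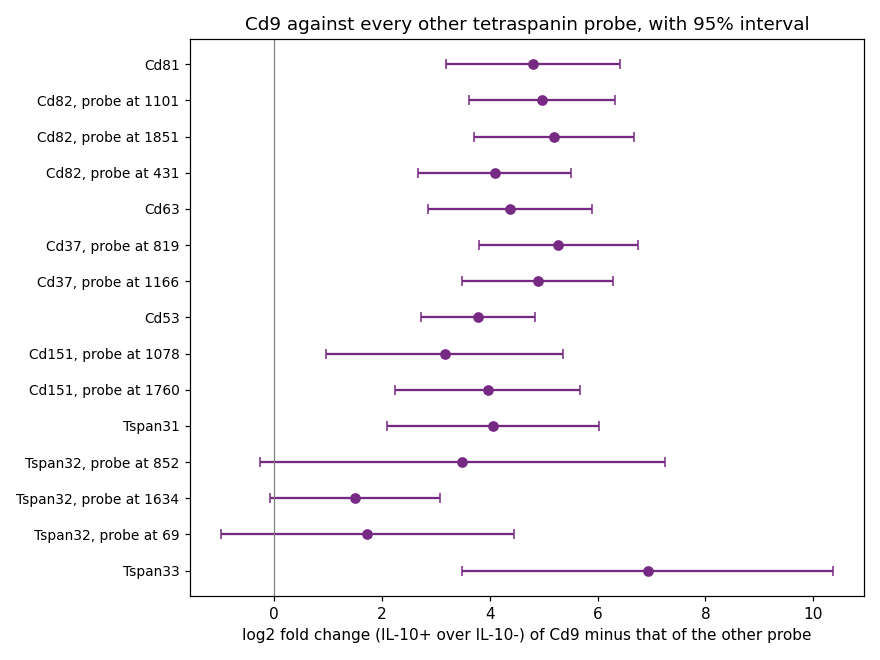
Averaged log2 fold change (IL-10+ over IL-10-) of Cd9 minus that of each of the 15 other tetraspanin probes, with 95% intervals. All points share the same Cd9 values, and slide is not a block in them. The intervals of 11 probes lie above 0 and those of the 3 Tspan32 probes reach below it; the Tspan33 point rests on IL-10+ signals that were not well above background and is no measured difference.

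No member passed the threshold between HDM and control mice. Over the 16 probes, HDM against control mice gave log2 fold changes of -1.61 to 0.59 in IL-10+ cells (lowest adjusted p = 1.00, 0 probes with an unadjusted p under 0.05), where 0.00401% of all genes were called. In IL-10- cells they ran from -3.08 to 1.72 (lowest adjusted p = 0.476), where 0.0481% were called; 3 probes had an unadjusted p under 0.05, Cd82 at base 1101 and Tspan32 at bases 1634 and 69. In that contrast all HDM arrays lay on slide 2 and 2 of 3 control arrays on slide 1. The difference of the sort contrast between HDM and control mice ran from -1.66 to 2.95 (lowest adjusted p = 0.757), with 0.012% of all genes called.

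No tetraspanin outside the members was called. Of 21 further tetraspanin genes with a probe, 15 passed the filter on dim signals. Averaged over both kinds of mouse, 10 of them had positive and 5 negative differences, 3 had an unadjusted p under 0.05 in limma, and their median was 0.10. Prph2, a photoreceptor disc tetraspanin, had 1.64 (SE 0.52, adjusted p = 0.332), Tspan13 had 1.50 (SE 0.67, adjusted p = 0.543) and Tspan5, which like Tspan33 escorts ADAM10, had 0.91 (SE 1.23, adjusted p = 0.851). Tspan14, another escort of ADAM10, had -0.88 (SE 0.38, adjusted p = 0.527) and is the third with an unadjusted p under 0.05, named here after its value was seen. Adam10 itself had -0.34 (SE 0.43, adjusted p = 0.842).

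No membrane partner of the tetraspanins was called either. Of 24 tested, 18 had positive and 6 negative differences, 2 had an unadjusted p under 0.05 in limma, and the median was 0.25. Cd2, an adhesion receptor best known from T cells, had 3.52 (SE 0.79, adjusted p = 0.136) measured above background on 6 IL-10+ and 2 IL-10- arrays. Ifitm2, an interferon-induced membrane protein, had -2.29 (SE 1.05, adjusted p = 0.553) and Itgb2, an integrin chain of LFA-1, 1.78 (SE 0.93, adjusted p = 0.605). The 2 with an unadjusted p under 0.05 were Cd2 and Itgal, the other chain of LFA-1. Itgal had 1.08 (SE 0.32, adjusted p = 0.291) and is named here after its value was seen. Itgb1, the integrin chain that CD9 and CD151 bind, had 0.27 (SE 0.25, adjusted p = 0.782).

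Genes of extracellular vesicles, in which CD9, CD63 and CD81 are used as markers, gave 13 positive and 5 negative differences of 18 tested, with a median of 0.26; limma called none, and 2 had an unadjusted p under 0.05. The largest differences were those of Rab27a, 2.52 (SE 1.39, adjusted p = 0.622), and Smpd3, 2.40 (SE 0.95, adjusted p = 0.478). They were well above background on only 4 and 5 of the 6 IL-10+ arrays. Among genes measured on all IL-10+ arrays, Cd47, a vesicle and cell-surface signal against uptake, had 1.66 (SE 1.36, adjusted p = 0.752). Anxa6, a calcium-dependent membrane-binding protein, had 1.31 (SE 0.31, adjusted p = 0.161), and Pdcd6ip, the ALIX adaptor of vesicle budding, 0.77 (SE 0.65, adjusted p = 0.760). Lysosome genes gave 12 positive and 9 negative differences of 21, with a median of 0.23; limma called none, and 1 had an unadjusted p under 0.05. The largest among those measured on all IL-10+ arrays were 1.67 for the cholesterol transporter Npc1, 1.66 for the protease Ctsb and 1.48 for the cholesterol carrier Npc2.

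Marker lists of the B cell subsets known to carry CD9 were read beside it. Of 12 marginal zone genes tested, 6 had positive and 6 negative differences, limma called none (0 at an unadjusted p under 0.05), and the median was -0.03. S1pr3, a sphingosine receptor of marginal zone B cells, had 1.01 (SE 1.43, adjusted p = 0.856), and Cr2, the CD21 complement receptor, 0.03 (SE 0.25, adjusted p = 0.977). Of 14 B-1 genes, 11 had positive and 3 negative differences, the median was 1.05, and Ctla4, Ptpn22 and Cd300lf were called higher. Ctla4, an inhibitory receptor, had 5.97 (SE 0.81, adjusted p = 0.0168) and Cd300lf, an inhibitory receptor mainly of myeloid cells, 1.61 (SE 0.23, adjusted p = 0.0234). Ptpn22, a phosphatase that dampens antigen receptor signals, had 3.91 (SE 0.49, adjusted p = 0.0129). Ptpn22 was well above background on 6 IL-10+ and 0 IL-10- arrays, so its IL-10- level was not measured and the size of its difference is uncertain. Ctla4 was so on 6 IL-10+ and 3 IL-10- arrays. In the B-1 list 7 of 14 genes had an unadjusted p under 0.05 in limma, as 9.17% of all genes had. Beside the called ones, 3 were higher in IL-10+ cells and 1 lower, named here after their values were seen. Higher were Bhlhe41 by 4.92 (SE 0.92, adjusted p = 0.0758), Spn by 3.18 (SE 0.71, adjusted p = 0.130) and Zbtb32 by 3.09 (SE 0.80, adjusted p = 0.211). Bhlhe40 had -1.42 (SE 0.39, adjusted p = 0.242). Cd5, the defining B-1a marker, had 0.02 (SE 0.74, adjusted p = 0.993). Of 14 plasmablast genes, 10 were positive and 4 negative, the median was 0.76, and Igj, the joining chain of polymeric antibody, rose by 6.84 (SE 0.62, adjusted p = 0.0045) and Ly6c1 by 4.67 (SE 0.76, adjusted p = 0.0415). Igj and Ly6c1 were each well above background on 6 IL-10+ and 2 IL-10- arrays. In the plasmablast list 5 of 14 genes had an unadjusted p under 0.05 in limma, as 9.17% of all genes had. The uncalled ones were Creb3l2 at 2.68 (adjusted p = 0.352), Ell2 at 1.26 (adjusted p = 0.375) and Tnfrsf13b at 0.94 (adjusted p = 0.373). Creb3l2 was well above background on only 3 IL-10+ and 0 IL-10- arrays. The 4 negative genes were Sdc1 (-1.08), Irf4 (-0.34), Xbp1 (-0.29) and Fkbp11 (-0.10), none of them called. Prdm1, the plasma cell master regulator, had 0.29 (SE 0.29, adjusted p = 0.800). Of 14 B cell identity genes, 8 had positive and 6 negative differences, with a median of 0.08. In limma 3 of them had an unadjusted p under 0.05, as 9.17% of all genes had. Blnk, which links the B cell receptor to downstream kinases, had -1.56 (SE 0.24, adjusted p = 0.0341) and was called lower. The others were not called: Blk at 1.14 (SE 0.32, adjusted p = 0.252), named here after its value was seen, and the member Cd37 at -0.76.

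The genes whose levels were most like that of Cd9 were found by Pearson's r over the 12 arrays among genes with a symbol. They were Ctla4 (r = 0.97), Plbd1, a phospholipase B-like protein (0.94), Sumo2, a protein modifier (0.94), Il10 (0.93), the light chain variable segment Igkv6-20 (0.92), the cholecystokinin receptor Cckbr (0.92), the lipid kinase Pik3c2b (0.91) and Treml2, a receptor of B and myeloid cells (0.91). These arrays share the sort, so any gene that differs between the sorts takes a high r, and the values describe likeness only. Among the other members the highest r with Cd9 was that of Cd53, 0.71, which ranked 459th of 24957 genes. It was 0.54 for Cd151, 0.25 for Tspan31, 0.16 for Cd63 and 0.08 for Tspan32 at base 852. It was negative for Cd81 (-0.32), Cd82 (-0.37), Cd37 (-0.55) and Tspan33 (-0.65). Without IL-10- HDM array 3, r was 0.50 for Tspan32, 0.56 for Tspan31, 0.31 for Cd151, 0.08 for Cd81 and -0.11 for Cd82, so these 5 values leaned on that array.

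Cd9 is also abundant in platelets, macrophages and other non-B cells, so their markers were read on the same arrays. Of 14 platelet and megakaryocyte markers, 11 passed the filter, with 7 positive and 4 negative differences, none called by limma and 1 with an unadjusted p under 0.05. The defining Pf4, Ppbp and Gp5 were not well above background on any of the 12 arrays, while 6 of the 14, among them Itga2b, Treml1, Clec1b and Vwf, were so on all 12. The summed signal of the 14, in units of the array's 75th percentile, was 3.93 to 5.24 in IL-10+ HDM cells and 2.81 to 3.90 in IL-10- HDM cells. It was 3.91 to 4.25 in IL-10+ control cells and 4.14 to 7.04 in IL-10- control cells. In HDM mice the IL-10+ sums thus lay above the IL-10- sums, and in control mice they overlapped with the IL-10- sums reaching higher. Of 15 monocyte and macrophage markers, 9 passed, with 5 positive and 4 negative differences, none called by limma and 1 with an unadjusted p under 0.05. Of the 15, C1qc, Mrc1, Msr1 and Ccr2 were not well above background on any array, while Csf1r, Itgam, Fcgr1 and Marco were so on all 12. Emr1, the gene of a surface glycoprotein used to mark macrophages, had 2.44 (SE 0.48, adjusted p = 0.0891), measured above background on 6 IL-10+ and 3 IL-10- arrays. The summed monocyte signal was 438 to 449 in IL-10+ HDM cells and 374 to 501 in IL-10- HDM cells. It was 383 to 510 in IL-10+ control cells and 380 to 425 in IL-10- control cells, so the sums overlapped in both kinds of mouse. Signals were summed without the log, so the brightest probe weighs most. Itgam had a mean level of 8.76 (IL-10+ sort) and 8.65 (IL-10- sort). Csf1r, the next of the 9, had 3.11 and 3.08. The monocyte sum therefore reads mainly Itgam and does not speak for the list. Dendritic cell, T cell, NK cell, neutrophil, mast cell, erythroid and stromal lists had no gene called by limma; 2 T cell and 1 erythroid markers had an unadjusted p under 0.05. In each of these lists some markers were well above background on all 12 arrays and some on none. On all 12 were 3 of 11 dendritic cell markers (Flt3, Siglech and Bst2), 5 of 12 T cell markers (Cd3e, Cd4, Cd8a, Lck and Thy1) and 3 of 9 NK cell markers (Ncr1, Nkg7 and Prf1). So were 1 of 10 neutrophil markers (Csf3r), 1 of 10 mast cell markers (Tpsb2), 1 of 8 erythroid markers (Ermap) and 3 of 10 stromal markers (Pecam1, Kdr and Epcam). On no array were 2 dendritic cell, 1 T cell, 2 NK cell, 2 neutrophil, 3 mast cell, 2 erythroid and 3 stromal markers, among them Itgax, Bcl11b, Klrd1, S100a8, Cpa3, Hbb-b1 and Col1a1. The summed dendritic cell signal was 70.6 to 74.0 in IL-10+ HDM cells and 77.8 to 96.0 in IL-10- HDM cells, and the erythroid sum was 30.7 to 33.1 in IL-10+ HDM cells and 35.3 to 58.8 in IL-10- HDM cells. Both sums were thus lower in all IL-10+ HDM arrays. In control mice both overlapped between the sorts, as did the sums of the other 5 lists in both kinds of mouse. A bright probe led 3 of these sums too. Mean levels (IL-10+ sort, IL-10- sort) were 6.03 and 6.19 for Siglech, 4.94 and 5.24 for Ermap, and 7.50 and 7.47 for Csf3r. Single markers could go another way than their sum. Of 7 dendritic cell markers tested, 5 had positive and 2 negative differences. Of 3 erythroid markers, 2 were negative and Alas2 had 2.17 (SE 0.81, adjusted p = 0.448). Beyond these levels, the part of other cells in the Cd9 values was not tested.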

How the data were processed

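The 10 members and the gene lists were chosen with earlier results of these data known, so no list is independent support. Per the labels' protocols, the authors isolated mRNA with beads, amplified the cDNA with the PCR-based SuperAmp protocol and added the dye Cy3. Such amplification can widen the spread of weak transcripts. Per the file headers, arrays of Agilent design with annotation on mm9 were quantified in Agilent Feature Extraction (version 10.7.3.1). Intensity values fill the deposited scanner files: a processed signal, background-subtracted and detrended but not normalised between arrays, and the mean and local background signals as scanned. Per the file headers, the flags for background, saturation and outliers are other values and no intensities. The deposited value table holds a ratio, each spot's processed signal over its array's median, found by recomputation to within 0.00077%. Scale, centring and direction of that table are therefore known, and each of its columns has a median of 1.

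Spots marked as outliers were left out. Analysis used log2 processed signals, less the 75th percentile of each array, for probes well above background on at least 3 of 12 arrays (37727 probes, of which 84 were dropped because all spots were outliers on some array). For each gene the probe with the highest mean was used, which left 24958 genes. limma 3.58.1 in R 4.3.3 fitted 1 mean per group over all 12 arrays (8 residual and 2.12 prior degrees of freedom, prior SD 0.649), and 6 contrasts were adjusted by Benjamini-Hochberg over all genes. Further probes of a member came from a fit with each of 37643 probes as its own row. As arrays give no counts, their number limits the precision. Exact permutation tests enumerated all arrangements in Python 3.11.15. Named genes are all members, Il10, the 8 genes most like Cd9, and from each list the called genes or up to 3 with the largest change that every array of the higher sort measured above background; others are named for their role, and this choice was made after values were seen. Alternatives were normexp (offset 50), quantile normalisation, the deposited ratio, other percentiles and filters, every probe as its own row, slide and replicate blocks, and leaving out each array.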

Additional observations from a re-analysis of the deposited data

How the results depend on the processing

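The Cd9 difference between the sorts kept its direction under every alternative run. Its averaged value was called under normexp, quantile normalisation, the deposited ratio (4.19), the percentile over detected probes (4.70), both other filters, every probe as its own row, the replicate block (4.52, adjusted p = 0.0218) and each of the 12 omissions (4.14 to 4.80). It was not called with slide as a block (4.73), where no gene of the array was called by limma (0 genes, 1759 at an unadjusted p under 0.05) and no member (0). In control mice alone it was called with normexp (3.14, and with it 1 member). Whether same-numbered samples were paired could not be settled. Deviations from the group means correlated by 0.02 to 0.15 between same-numbered arrays of the same kind of mouse. Over all 18 same-numbered pairs they correlated by -0.14 to 0.15. Such weak correlations do not decide pairing, which the labels do not state. The Cd9 levels of same-numbered arrays had the same order in both sorts, in HDM and in control mice. A replicate block gave 36 called genes. Pairing within each kind of mouse was an alternative chosen after seeing the data. It gave 4.52 for Cd9 (SE 0.34, against 0.56 without pairing, limma adjusted p = 0.0811). It gave 0 called members and 0 called genes (2610 at an unadjusted p under 0.05). The count of called genes, 67, was 26 with the deposited ratio and 130 with every probe as its own row. Omissions moved it between 31 and 139: leaving out IL-10+ control array 3 gave 31, IL-10+ HDM array 2 gave 33, IL-10- HDM array 1 gave 139 and IL-10- HDM array 2 gave 1.60 times the 67. The median of all genes, 0.04, moved to -0.29 with the deposited ratio and 0.22 with the percentile over detected probes. Signs turned for uncalled values: Cd63 (-0.19 with the deposited ratio, -0.84 with slide as a block, -0.28 to 0.39 over omissions), Cd82 at base 431 (-0.24 with slide as a block, -0.25 to 0.78 over omissions), Tspan33 (0.53 with slide as a block), Cd9 between HDM and control mice in IL-10- cells (0.082 with normexp, 0.62 with quantile normalisation, 0.64 with the deposited ratio, -0.69 to 0.75 over omissions) and the interaction of Cd9 (-1.31 to 0.12 over omissions). The excess of Cd9 over Tspan32 at base 852 lost its threshold with normexp (2.07, exact permutation p = 0.05) and when any of 6 arrays was omitted (exact permutation p up to 0.09). The causes of these changes were not tested. Dim signals limit Tspan33, Tspan32 at bases 1634 and 69 and the IL-10- level of Cd9.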
